A study of Mus musculus with 16 samples.

Results

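The 10 genes described here belong to the Notch pathway and the Id family, which together are known as brakes on oligodendrocyte differentiation. They were taken by name: the receptor gene Notch1, the ligand genes Dll1 and Dll3, the transcriptional repressor genes Hes1, Hes5 and Hey1, and the genes Id1, Id2, Id3 and Id4. Each name matched 1 Ensembl mouse identifier, so they are 10 of the 55335 genes counted. RNA was measured in 16 libraries from oligodendrocyte precursor cells (OPCs), the proliferating cells that give rise to myelinating oligodendrocytes. The OPCs were derived from mouse neural stem cells on a mixed C57BL6J/129svEmx background and taken on day 4 of monolayer culture. The 4 groups had 4 libraries each: RXRgKO OPCs (labelled RXRg-/-) with T3 for 24 h, WT OPCs (labelled RXRg+/+) with T3 for 24 h, RXRgKO OPCs without T3, and WT OPCs without T3. T3 is triiodothyronine, the active thyroid hormone, and RXRg (gene Rxrg) is a retinoid X receptor that can pair with thyroid hormone receptors. Nothing in the labels ties the 4 libraries of a group to separate cultures, and p-values then cover only their spread, which may be technical.

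Notch receptors are activated by Delta or Jagged ligands on a neighbouring cell, which leads to cleavage by gamma-secretase. The freed intracellular domain joins the DNA-binding protein RBPJ and switches on Hes and Hey genes, whose basic helix-loop-helix (bHLH) products repress differentiation genes. Id proteins have a helix-loop-helix but no DNA-binding region. They bind E proteins and keep them from partnering with lineage bHLH factors, and Id genes are known targets of bone morphogenetic protein (BMP) signalling. In OPCs both groups are known for holding back differentiation, and thyroid hormone is known for promoting it.

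Promoter sequences are shown for Hes5, Id4 and Dll3, because these were the members with lower RNA after T3 in the WT-labelled cells (values below). Each is 300 bases of RefSeq sequence (GRCm38.p6), 250 before and 50 after the start annotated there, read 5′ to 3′ on the gene's strand. For Id4 and Dll3 that start differs from the gene positions given further below, which come from another annotation. The Id4 window ends before the gene position begins, and the Dll3 window lies inside it. Distances are counted from the RefSeq start. Capitals mark matches, on either strand, to the RBPJ core TGGGAA and the N-box CACNAG bound by Hes proteins. The Hes5 window is chr4:154960673-154960972 on the plus strand, the Id4 window chr13:48260866-48261165 on the plus strand, and the Dll3 window chr7:28301736-28302035 on the minus strand.
Hes5: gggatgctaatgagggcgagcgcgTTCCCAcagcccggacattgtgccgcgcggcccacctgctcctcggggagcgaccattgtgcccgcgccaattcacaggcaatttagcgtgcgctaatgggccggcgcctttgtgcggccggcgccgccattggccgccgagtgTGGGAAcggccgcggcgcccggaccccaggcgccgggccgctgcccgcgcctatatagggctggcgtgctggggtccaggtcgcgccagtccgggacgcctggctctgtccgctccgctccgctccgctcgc
Id4: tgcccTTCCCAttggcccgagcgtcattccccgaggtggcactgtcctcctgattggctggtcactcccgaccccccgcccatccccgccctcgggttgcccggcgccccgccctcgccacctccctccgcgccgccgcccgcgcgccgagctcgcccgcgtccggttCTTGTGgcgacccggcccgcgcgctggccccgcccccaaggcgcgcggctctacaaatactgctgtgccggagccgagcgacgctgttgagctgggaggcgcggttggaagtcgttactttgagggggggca
Dll3: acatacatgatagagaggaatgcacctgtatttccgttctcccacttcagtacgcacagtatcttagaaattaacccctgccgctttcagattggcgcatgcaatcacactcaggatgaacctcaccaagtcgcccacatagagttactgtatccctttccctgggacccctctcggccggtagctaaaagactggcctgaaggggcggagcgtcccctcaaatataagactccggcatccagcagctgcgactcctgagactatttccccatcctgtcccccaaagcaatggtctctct

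The Hes5 window held 2 matches to the RBPJ core, 82 bases before the start on the gene's strand and 226 bases before it on the other strand. It held no N-box match. The Id4 window held 1 RBPJ match, 245 bases before the start, and 1 N-box match 82 bases before it. The Dll3 window held neither, and its E-box matches (CANNTG) lay 228 and 7 bases before the start. The palindrome GGCGCC, a GC-rich SMAD motif, occurred 4 times in the Hes5 window and 1 time in the Id4 window. The T3 receptor motif AGGTCA had 0 matches in the Hes5, Id4 and Dll3 windows. A window of Dll1, which is not shown, held 1 match. Of 32851 RefSeq promoter windows of this length, 25.6% held an RBPJ match, 42.5% an N-box, 72.3% an E-box and 11.9% a GGCGCC. Among the same windows, 16.3% held an AGGTCA. The RBPJ, N-box and E-box patterns can overlap each other. These matches are descriptions of letters and not of binding. The promoter table matched 7 of the 10 members, and Hes1, Hey1 and Id1 are named only.

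Libraries held 18262279 to 42588442 gene counts, and the members had between 117 and 16945 counts per library. Rxrg was at 5.46, 4.89, 4.27 and 5.05 CPM (counts scaled to library size) in RXRgKO-labelled libraries with T3, against 0.885, 0.960, 0.597 and 0.371 CPM in WT-labelled libraries with T3. Without T3 it was at 4.83, 3.77, 4.60 and 3.79 CPM under the RXRgKO label, against 1.79, 1.48, 1.14 and 1.65 CPM under the WT label. Its RNA was therefore higher under the knockout label (log2 fold change 2.79, SE 0.23, adjusted p = 8.8e-07 with T3, and 1.48, SE 0.22, adjusted p = 0.000199 without, edgeR's quasi-likelihood test). The deleted part of the gene is not stated, so gene-level counts cannot check the deletion, and every direction below is between libraries labelled RXRgKO and libraries labelled WT. All 11 OPC markers passed the filter on low counts, and the lowest value among them was 28.2 CPM, for Cspg4.

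Libraries of 1 group did not all resemble each other. WT-labelled replicate 1 stood apart from WT-labelled replicates 2 to 4, with and without T3. In the RXRgKO-labelled groups, T3 replicates 1 and 2 and untreated replicates 1 and 3 had 1.39 to 3.75 CPM of Xist, the RNA of the inactive X chromosome. T3 replicates 3 and 4 and untreated replicates 2 and 4 had 543 to 723 CPM. All WT-labelled libraries had Xist, at 276 to 1382 CPM, so none matched the RXRgKO-labelled libraries lacking it. The libraries lacking Xist had 115 to 126 CPM of the Y-linked gene Ddx3y, against 13.9 to 78.3 CPM under the WT label. In comparisons between labels, the genotype label and the sex of the cells therefore cannot be told apart for the libraries lacking Xist. Within 1 group, a chi-square per gene was 1.51 to 2.14 between libraries of a set and 4.92 to 8.35 between libraries of different sets. It was not computed between treatments. Libraries within a set thus lay closer to counting noise than libraries of different sets, over genes with summed counts of 20 to under 500. Hes1 fell in that range under the WT label only. The other members, and Hes1 under the RXRgKO label, had higher summed counts and could differ more. Dll3 was at 76.3 and 52.3 CPM in untreated RXRgKO-labelled replicates 1 and 3, which share a set. Whether the libraries of a set are independent cultures is not stated. Xist also differed with treatment in WT-labelled replicates 2 to 4 (276 to 365 CPM with T3, 1198 to 1382 CPM without). In the RXRgKO-labelled libraries with Xist, Ddx3y was at 22.1 and 20.7 CPM with T3 and 52.9 and 51.2 CPM without. For these sets the treatment and a difference in culture cannot be told apart, and nothing in the labels excludes a culture difference in the others. Values of the members are given by library for this reason.

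**Figure D1:**
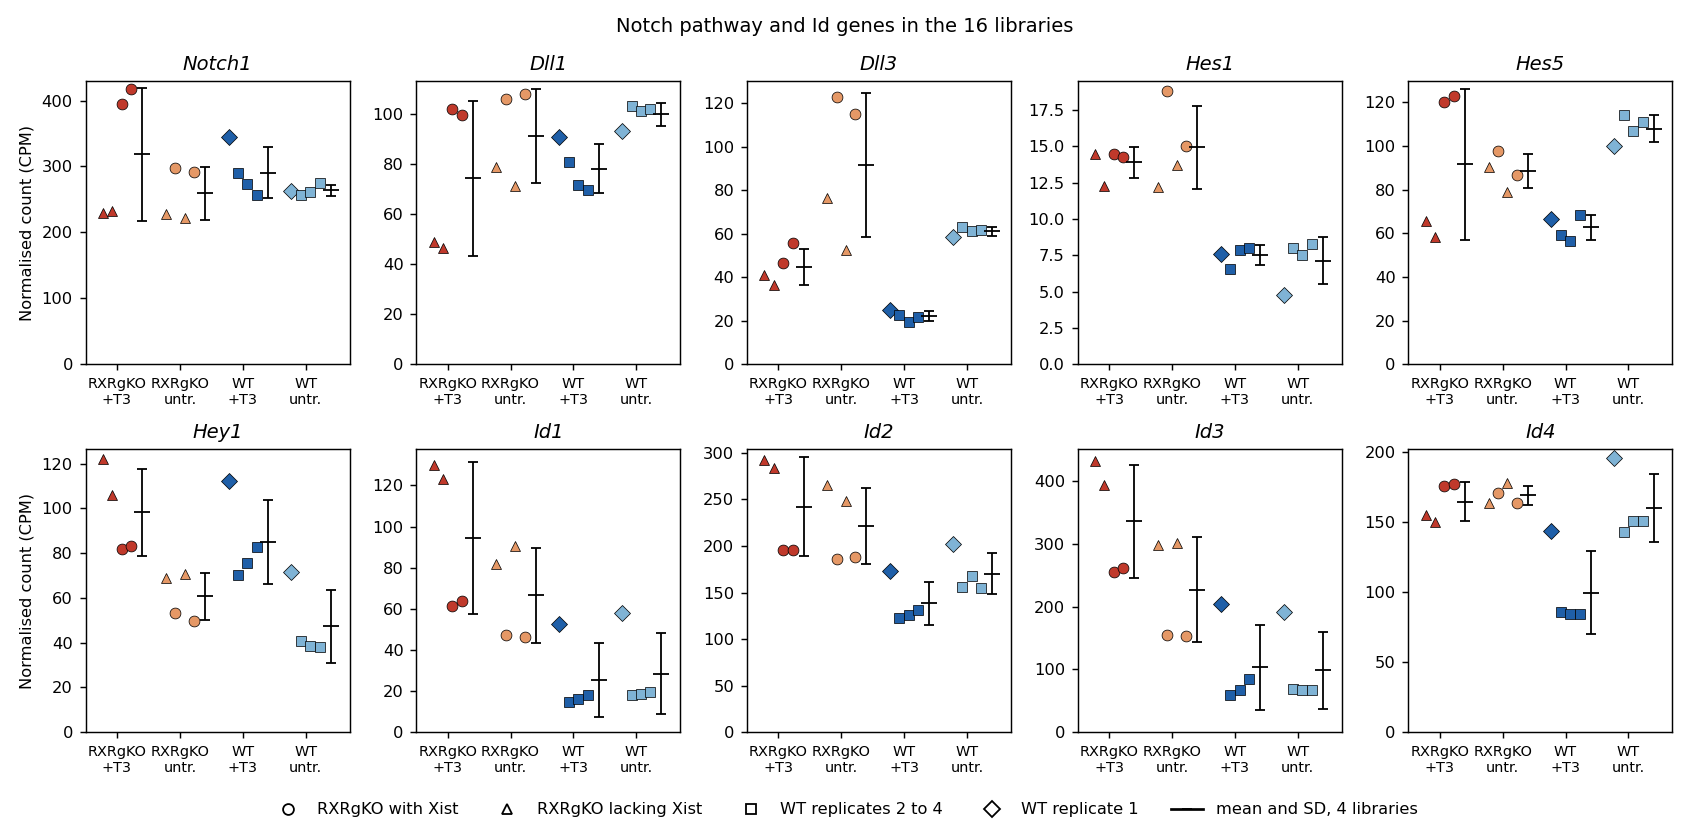
Level of each of the 10 genes (TMM-normalised CPM) in the 16 libraries, with 1 panel per gene, 1 point per library, the group mean and SD beside the points, and marker shapes for the library sets. Dll3 with T3 lies at 19.2 to 24.7 CPM under the WT label, below all untreated libraries, and Hes1 lies at 12.2 to 18.8 CPM in all RXRgKO-labelled libraries, above all WT-labelled ones.

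After T3, the WT-labelled cells had less RNA of the ligand gene Dll3, the Notch target gene Hes5 and Id4, and more of the repressor gene Hey1. Dll3 fell to 0.361 of its untreated level, Hes5 to 0.581 and Id4 to 0.621, and Hey1 rose 1.80-fold. Of the 10 members, 3 were lower, 1 was higher and 6 were not called at a Benjamini-Hochberg adjusted p under 0.05. Of the 19764 genes tested, 3.48% were lower and 4.96% were higher (8.44% in either direction). The median log2 fold change was -0.23 over the members and -0.0316 over all genes tested. In bulk RNA, fewer cells of a type and less RNA per cell cannot be told apart.

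Dll3 encodes a Delta-like protein that acts inside the sending cell and does not activate Notch on neighbours. It was at 24.7, 22.7, 19.2 and 21.7 CPM in WT-labelled libraries with T3 (replicates 1 to 4), against 58.5, 63.2, 61.2 and 61.5 CPM without. All 4 T3 libraries lay below all 4 untreated ones, and the spread within each group was small. The log2 fold change was -1.47 (SE 0.22, adjusted p = 0.000343, edgeR's quasi-likelihood test). It kept its call in each of the 8 fits that left out 1 library. Dll1, an activating ligand, was at 90.6, 80.8, 71.4 and 69.6 CPM with T3, against 93.1, 103, 101 and 102 CPM without. Its groups did not overlap either, but its log2 fold change of -0.35 (SE 0.23, 95% interval -0.84 to 0.14) had adjusted p = 0.41. Of all genes tested, 15.4% did not overlap between these groups, and among the members Dll1, Dll3 and Hes5 did not. With the replicate number as a block in the WT-labelled libraries alone, Dll1 was called lower (-0.37, adjusted p = 0.0132), as was Id2 (-0.31, adjusted p = 0.00868). That fit called 5084 genes in place of 1668, and equal replicate numbers were not shown to mark shared cultures.

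Notch1, the receptor gene, was at 344, 290, 273 and 256 CPM with T3, against 263, 256, 261 and 275 CPM without, in the WT-labelled cells. The groups overlapped (log2 fold change 0.14, SE 0.19, 95% interval -0.26 to 0.55, adjusted p = 0.718).

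Hes5, a direct target of Notch in neural precursors, was at 66.6, 59.4, 56.6 and 68.5 CPM with T3, against 100, 114, 107 and 111 CPM without, in the WT-labelled cells. The groups did not overlap (log2 fold change -0.78, SE 0.20, adjusted p = 0.0212). The call was lost in 6 of the 8 fits without 1 library (adjusted p up to 0.0786) and without a low-count filter (adjusted p = 0.0675). Hey1 was at 112, 70.0, 75.4 and 82.7 CPM with T3, against 71.6, 40.6, 38.7 and 38.0 CPM without. T3 replicate 2, at 70.0 CPM, lay below untreated replicate 1, at 71.6 CPM, so the groups overlapped, while each replicate number was higher with T3. The log2 fold change was 0.85 (SE 0.22, adjusted p = 0.0233), and the call was lost in 5 of the 8 fits without 1 library (adjusted p up to 0.1). Hes1 was low, at 7.62, 6.53, 7.89 and 8.0 CPM with T3, against 4.76, 7.98, 7.50 and 8.31 CPM without. Its groups overlapped (0.07, SE 0.17, adjusted p = 0.847).

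Id4, the Id gene that fell, was at 144, 85.6, 84.1 and 84.5 CPM with T3, against 196, 143, 151 and 151 CPM without, in the WT-labelled cells. Replicate 1 was the highest library in both groups, and its T3 value lay just above the lowest untreated one. The log2 fold change was -0.69 (SE 0.17, adjusted p = 0.0159). The call was lost without a low-count filter (adjusted p = 0.0901) and in 3 of the 8 fits without 1 library (adjusted p up to 0.0742). The other Id genes overlapped between the treatments. Id1 was at 14.9 to 52.4 CPM with T3 and 18.1 to 57.8 CPM without (-0.17, SE 0.46, adjusted p = 0.879). Id2 was at 123 to 173 CPM with T3 and 155 to 202 CPM without (-0.30, SE 0.18, adjusted p = 0.349). Id3 was at 58.7 to 204 CPM with T3 and 66.5 to 191 CPM without (0.08, SE 0.42, adjusted p = 0.942). In both Id1 and Id3, replicate 1 stood far above the other replicates with and without T3.

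In the RXRgKO-labelled cells, Dll3 RNA was lower with T3, and no other member was called. Of the members 1 was lower and 0 were higher, where 0.794% of all genes tested were lower and 2.01% higher (2.81% in either direction). At an unadjusted p under 0.05, 1 member was higher and 1 lower, where 8.16% of all genes were higher and 7.74% lower (15.9% in either direction). DESeq2 at an adjusted p also called 1 higher and 1 lower, where it called 4.07% of all genes higher and 1.97% lower (6.04% in either direction). The median log2 fold change was 0.09 over the members and -0.0019 over all genes. Dll3 was at 41.1, 36.2, 46.5 and 55.6 CPM with T3, against 76.3, 123, 52.3 and 115 CPM without. Untreated replicate 3 lay below T3 replicate 4, so the groups overlapped. The log2 fold change was -1.03 (SE 0.21, adjusted p = 0.012). The call was lost when the 8 RXRgKO-labelled libraries were fitted alone (adjusted p = 0.0842), without untreated replicate 2 (adjusted p = 0.0728) or 4 (adjusted p = 0.074), and without the libraries with Xist (-0.71, adjusted p = 0.139).

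Hey1 was at 122, 106, 81.8 and 83.2 CPM with T3, against 68.8, 53.4, 70.7 and 49.8 CPM without, under the RXRgKO label. It was the 1 member whose groups did not overlap, where 13.4% of all genes did not. Its log2 fold change of 0.70 (SE 0.22, 95% interval 0.23 to 1.16) had adjusted p = 0.11, and DESeq2 gave adjusted p = 0.0339. Hes5 was at 65.6, 58.2, 120 and 123 CPM with T3, against 90.5, 97.8, 78.8 and 86.9 CPM without. The T3 libraries split on both sides of all untreated ones (0.05, SE 0.20, adjusted p = 0.922). Id4 was at 155, 150, 176 and 177 CPM with T3, against 164, 171, 178 and 164 CPM without (-0.04, SE 0.17, 95% interval -0.39 to 0.31, adjusted p = 0.929). Its 8 libraries lay in a narrow range.

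The remaining members overlapped between the treatments under the RXRgKO label. Notch1 was at 229, 233, 394 and 417 CPM with T3, against 228, 297, 222 and 291 CPM without (0.30, SE 0.19, adjusted p = 0.469). Dll1 was at 48.7, 46.4, 102 and 99.7 CPM with T3, against 78.9, 106, 71.3 and 108 CPM without (-0.29, SE 0.23, adjusted p = 0.568). In both genes the libraries lacking Xist were the low ones within each treatment. Id3 was at 432, 395, 256 and 262 CPM with T3, against 298, 155, 301 and 154 CPM without (0.57, SE 0.42, adjusted p = 0.537). Id1 was at 130, 123, 61.4 and 63.9 CPM with T3, against 82.0, 47.3, 90.5 and 46.2 CPM without (0.51, SE 0.45, adjusted p = 0.615). Id2 was at 292, 284, 196 and 196 CPM with T3, against 265, 186, 248 and 188 CPM without (0.13, SE 0.18, adjusted p = 0.763). In Id1, Id2 and Id3 the libraries lacking Xist were the high ones within each treatment. Hes1 was at 14.5, 12.3, 14.5 and 14.3 CPM with T3, against 12.2, 18.8, 13.7 and 15 CPM without (-0.10, SE 0.17, adjusted p = 0.803).

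**Figure D2:**
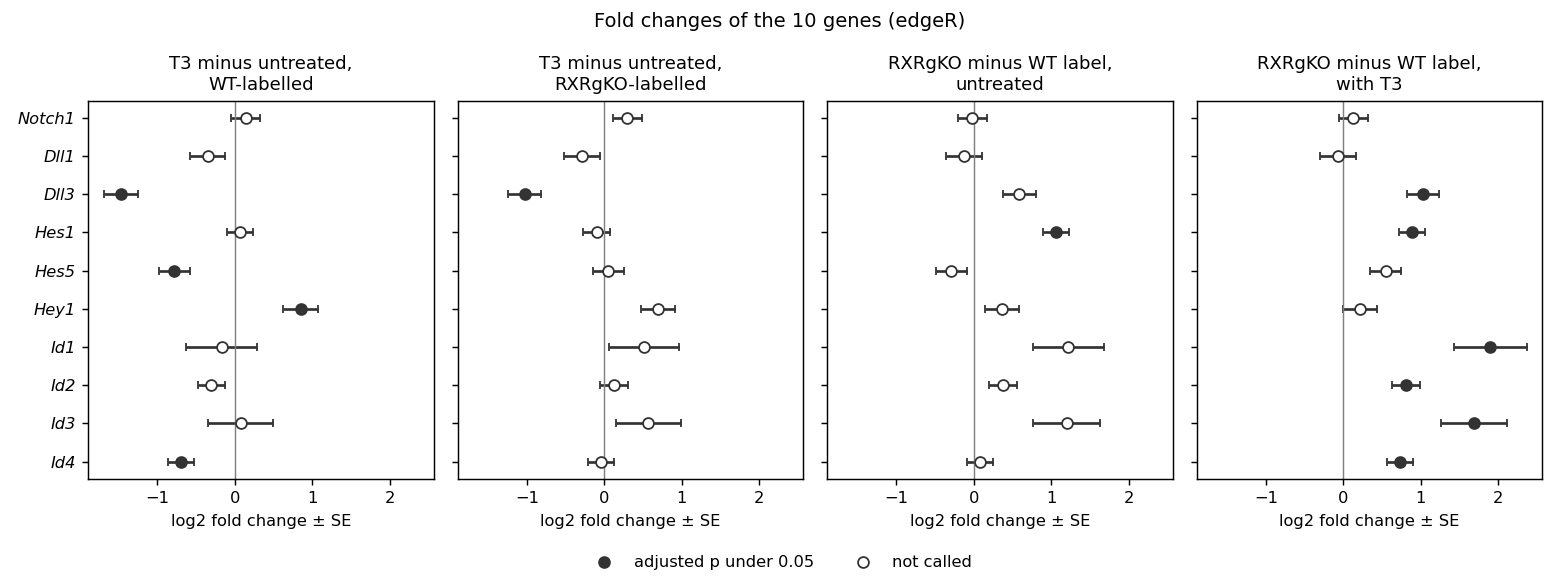
Log2 fold change of each of the 10 genes with its SE in the 4 comparisons of groups, 1 panel each, filled where the adjusted p was under 0.05. Dll3 lies at -1.03 with T3 under the RXRgKO label and at -1.47 under the WT label, and 6 genes are filled to the right of 0 for RXRgKO against WT with T3.

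Within library sets, the T3 change had the same sign in all 4 sets for 5 of the 10 members, namely Dll3, Dll1, Hey1, Notch1 and Id3, some of whose values lay close to 0. These values are log2 ratios of the mean CPM with and without T3 within a set and carry no test. Likeness of libraries was measured within treatments only, and a difference in culture between treatments is not excluded. For Dll3 they were -0.73 in the RXRgKO-labelled libraries lacking Xist, -1.22 in those with Xist, -1.25 in WT-labelled replicate 1 and -1.55 in WT-labelled replicates 2 to 4. For Hey1 they were 0.71, 0.68, 0.64 and 0.96 in the same order. For Hes5 they were -0.45 and 0.40 in the RXRgKO-labelled sets, lacking and with Xist, and -0.59 and -0.85 in the WT-labelled sets. The RXRgKO-labelled average near 0 for Hes5 was thus made of values on either side of 0. For Id4 they were -0.16 and 0.08 in the RXRgKO-labelled sets and -0.45 and -0.81 in the WT-labelled sets. Dll1 was at -0.66 in the libraries lacking Xist and -0.08 in those with Xist, and at -0.04 in WT-labelled replicate 1 and -0.46 in replicates 2 to 4. Notch1 was at 0.04 and 0.47 in the RXRgKO-labelled sets and 0.39 and 0.05 in the WT-labelled sets. The Id1 values were 0.55 and 0.42 in the RXRgKO-labelled sets and -0.14 and -0.20 in the WT-labelled ones. Id2 values were 0.17 and 0.07, and -0.23 and -0.33. Id3 was at 0.47 and 0.75, and at 0.09 and 0.06. Hes1 was at 0.06 and -0.23, and at 0.68 and -0.09.

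**Figure D3:**
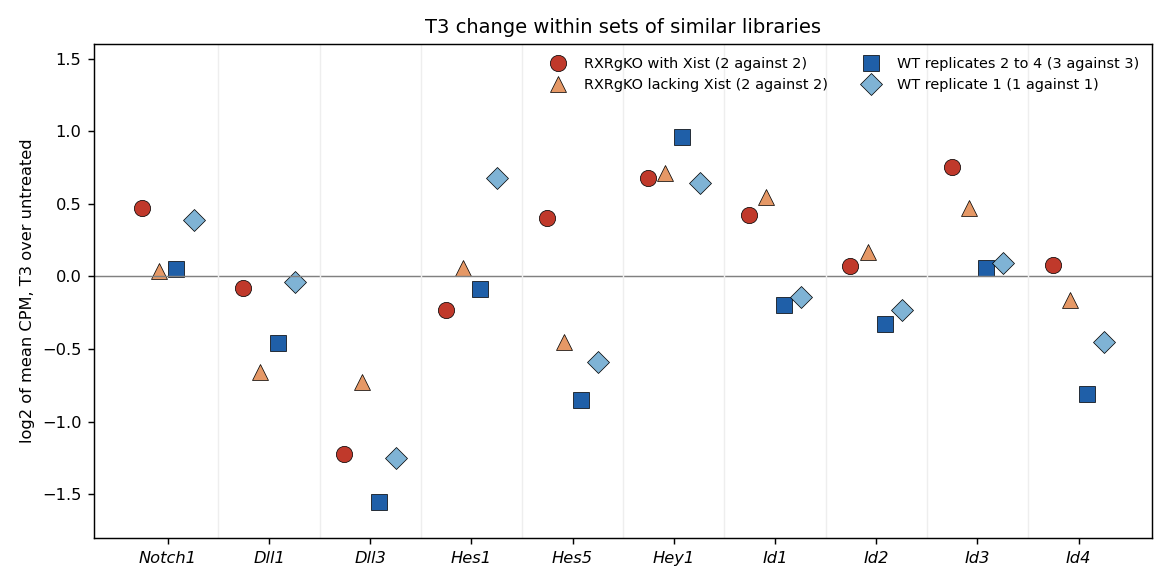
Log2 ratio of the mean CPM with T3 to that without T3 within each of the 4 library sets, for the 10 genes. Dll3 is below 0 and Hey1 above 0 in all 4 sets, while Hes5 is at 0.40 in the RXRgKO-labelled libraries with Xist and below 0 in the other 3.

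The test of the difference between the T3 responses called no member. At an adjusted p under 0.05 the fit called 13 genes, or 0.0658% of those tested (0.0101% higher and 0.0557% lower), and 0 of the 10 members. DESeq2 called 0 members and 0.531% of all genes. At an unadjusted p under 0.05 the count was 2 members, Hes5 and Id4, and 5.15% of all genes. For Hes5 the difference (RXRgKO minus WT label) was 0.84 on the log2 scale (SE 0.28, unadjusted p = 0.00889, adjusted p = 0.557). For Id4 it was 0.65 (SE 0.24, unadjusted p = 0.0139, adjusted p = 0.639). In the fit of all libraries by group, the fall of both genes under the WT label is therefore not shown to differ from their values under the RXRgKO label. The library set was also fitted as a term, which treats the similar libraries of a set as independent. With that term the difference was called for Hes5 (0.77, adjusted p = 0.036), Id4 (0.67, adjusted p = 6.97e-05), Id1 (0.67, adjusted p = 6.14e-05), Id2 (0.42, adjusted p = 0.000976) and Id3 (0.53, adjusted p = 0.00633). Without the libraries lacking Xist the Hes5 difference was called (1.14, adjusted p = 0.0166), and without WT-labelled replicate 1 the Id4 difference was (0.77, adjusted p = 0.0145). For Dll3 the difference was 0.44 (95% interval -0.19 to 1.07, adjusted p = 1). The median difference was 0.43 over the members and 0.0262 over all genes.

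Between genotype labels without T3, the repressor gene Hes1 was the called member. It was at 12.2, 18.8, 13.7 and 15 CPM under the RXRgKO label, against 4.76, 7.98, 7.50 and 8.31 CPM under the WT label. All RXRgKO-labelled libraries lay above all WT-labelled ones (log2 fold change 1.06, SE 0.17, adjusted p = 0.000457). Of the 10 members 1 was higher, 0 were lower and 9 were not called, where 6.17% of all genes were higher and 5.16% lower (11.3% in either direction). At an unadjusted p under 0.05, 5 members were higher and 0 lower, where 11.5% of all genes were higher and 10.3% lower (21.8% in either direction). DESeq2 called 4 members higher and 0 lower, and 7.51% of all genes higher and 6.66% lower (14.2% in either direction). The groups did not overlap for Hes1 and Hes5, and 18.7% of all genes did not overlap. Hes5 was at 90.5, 97.8, 78.8 and 86.9 CPM under the RXRgKO label, against 100, 114, 107 and 111 CPM under the WT label. Its log2 fold change of -0.29 (SE 0.20) had adjusted p = 0.462. The median log2 fold change was 0.37 over the members and -0.0008 over all genes.

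Id1 and Id3 were at 46.2 to 90.5 CPM and 154 to 301 CPM under the RXRgKO label, against 18.1 to 57.8 CPM and 66.5 to 191 CPM under the WT label, without T3. In both genes the overlap came from WT-labelled replicate 1, which had 57.8 CPM of Id1 and 191 CPM of Id3. The log2 fold changes were 1.22 (SE 0.46, adjusted p = 0.112) for Id1 and 1.20 (SE 0.43, adjusted p = 0.0849) for Id3. Without untreated WT-labelled replicate 1, they were 1.83 (adjusted p = 0.0123) and 1.75 (adjusted p = 0.00896), and Hey1 was called as well (0.64, adjusted p = 0.0381). Dll3 was at 76.3, 123, 52.3 and 115 CPM under the RXRgKO label, against 58.5, 63.2, 61.2 and 61.5 CPM under the WT label (0.59, SE 0.21, adjusted p = 0.0892). RXRgKO-labelled replicate 3 was the 1 library below the WT-labelled range, and without it Dll3 was called (0.78, adjusted p = 0.00791). The Dll3 difference depended on the Xist sets, at 0.96 (adjusted p = 0.000107) without the libraries lacking Xist and 0.01 (adjusted p = 0.967) without those with Xist. Id2 had a log2 fold change of 0.38 (SE 0.18, adjusted p = 0.223) and Hey1 of 0.36 (SE 0.22, adjusted p = 0.385). Id4, Notch1 and Dll1 had log2 fold changes of 0.08, -0.02 and -0.13. Their 95% intervals were -0.27 to 0.43, -0.43 to 0.38 and -0.62 to 0.36. Without the libraries with Xist, Dll1 (-0.48, adjusted p = 0.0188) and Hes5 (-0.42, adjusted p = 0.0356) were called lower, and Id2 (0.53, adjusted p = 0.0265), Id1 (1.54, adjusted p = 0.0478) and Id3 (1.54, adjusted p = 0.0371) higher.

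With T3, the RXRgKO-labelled cells had more RNA of all 4 Id genes, of Dll3 and of Hes1 than the WT-labelled cells. The rises were 3.72-fold for Id1, 3.23-fold for Id3, 2.04-fold for Dll3, 1.85-fold for Hes1, 1.75-fold for Id2 and 1.65-fold for Id4. Of the 10 members 6 were higher, 0 were lower and 4 were not called, where 8.1% of all genes were higher and 6.8% lower (14.9% in either direction). The same 6 members did not overlap between groups, and 18.1% of all genes did not. The median log2 fold change was 0.77 over the members and 0.0247 over all genes. This comparison shares its WT-labelled libraries with the T3 comparison above, in which Dll3 and Id4 fell, so the values of these genes in the 2 comparisons are not independent.

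Id1, which together with Id3 is the Id gene most tied to BMP signalling, was at 130, 123, 61.4 and 63.9 CPM under the RXRgKO label with T3, against 52.4, 14.9, 15.9 and 18.1 CPM under the WT label. The lowest RXRgKO-labelled library lay above WT-labelled replicate 1 and far above WT-labelled replicates 2 to 4. The log2 fold change was 1.90 (SE 0.47, adjusted p = 0.0106). Id3 was at 432, 395, 256 and 262 CPM, against 204, 58.7, 67.0 and 85.5 CPM. It had a log2 fold change of 1.69 (SE 0.43, adjusted p = 0.0125). In both genes the RXRgKO-labelled libraries lacking Xist were on top, and replicate 1 was the highest of the WT-labelled libraries. The calls of Id1 and Id3 were lost without the libraries lacking Xist (Id1 1.27, adjusted p = 0.119; Id3 1.29, adjusted p = 0.0913) and without a low-count filter (adjusted p = 0.0701 and 0.06). That of Id3 was also lost without WT-labelled T3 replicate 2 (adjusted p = 0.0508) or 3 (adjusted p = 0.0501).

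Id2 was at 292, 284, 196 and 196 CPM under the RXRgKO label with T3, against 173, 123, 126 and 131 CPM under the WT label (0.81, SE 0.18, adjusted p = 0.00497). Id4 was at 155, 150, 176 and 177 CPM, against 144, 85.6, 84.1 and 84.5 CPM (0.73, SE 0.17, adjusted p = 0.0064). For Id4 the gap between the groups was narrow at WT-labelled replicate 1 and wide at the other replicates. Without the libraries with Xist, the Id4 log2 fold change was 0.55 (adjusted p = 0.0545). Dll3 was at 41.1, 36.2, 46.5 and 55.6 CPM under the RXRgKO label, against 24.7, 22.7, 19.2 and 21.7 CPM under the WT label (1.03, SE 0.21, adjusted p = 0.00307). Hes1 was at 14.5, 12.3, 14.5 and 14.3 CPM, against 7.62, 6.53, 7.89 and 8.0 CPM (0.89, SE 0.17, adjusted p = 0.00165). Dll3, Hes1 and Id2 kept their calls with T3 under every alternative run.

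The 4 members not called with T3 were Hes5, Hey1, Notch1 and Dll1. Hes5 was at 65.6, 58.2, 120 and 123 CPM under the RXRgKO label, against 66.6, 59.4, 56.6 and 68.5 CPM under the WT label (0.55, SE 0.20, adjusted p = 0.0786). The RXRgKO-labelled libraries with Xist lay above the WT-labelled range, and those lacking Xist lay within it. Without the libraries lacking Xist, Hes5 was called higher (0.91, adjusted p = 0.000156), as was Notch1 (0.44, adjusted p = 0.0204). Without the libraries with Xist, Notch1 (-0.41, adjusted p = 0.0328) and Dll1 (-0.79, adjusted p = 0.000679) were called lower. With all libraries Notch1 had a log2 fold change of 0.13 (SE 0.19, adjusted p = 0.745) and Dll1 of -0.07 (SE 0.23, adjusted p = 0.899). Hey1 was at 122, 106, 81.8 and 83.2 CPM, against 112, 70.0, 75.4 and 82.7 CPM (0.21, SE 0.22, adjusted p = 0.617).

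Markers of other cells moved with the genotype label and with the library sets, and their part in the values of the members was not tested. Beside the 6 higher members with T3, 5 of 5 fibroblast and meningeal markers were higher, with summed levels of 134 to 158 CPM under the RXRgKO label and 13.6 to 31.6 CPM under the WT label. Of 7 endothelial markers 3 were higher (22.0 to 33.5 CPM against 8.86 to 11.1 CPM), and of 6 mural markers 2 were higher (393 to 526 CPM against 70.9 to 101 CPM). The mural markers did not move together. Pdgfrb was at 16.1 ± 9.49 CPM under the RXRgKO label and 15.9 ± 1.26 CPM under the WT label, and Rgs5 at 12.1 ± 1.75 and 15.6 ± 2.35 CPM. Of 7 microglia markers 5 were higher (3.67 to 13.9 CPM against 1.81 to 2.39 CPM), of 6 ependymal markers 5 (59.0 to 95.1 CPM against 23.7 to 35.5 CPM), and of 11 neuron markers 8 (1750 to 2369 CPM against 1274 to 1309 CPM). Of the defining markers, Cldn5 (endothelial) had no count in 3 libraries, Kcnj8 (mural) in 1, Aif1 and Itgam (microglia) in 4 and 2, and Tmem212 (ependymal) in 6. Of 13 myelin genes 12 were lower (3705 to 6043 CPM against 21335 to 31392 CPM).

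Beside Hes1 without T3, the same lists had 5 of 5, 3 of 7, 2 of 6, 5 of 7, 5 of 6 and 2 of 11 members higher, and 13 of 13 myelin genes were lower. The mural marker Rgs5 was at 12.6 ± 8.40 CPM under the RXRgKO label and 26.4 ± 0.816 CPM under the WT label without T3. DESeq2 called 1 mural marker lower there, where it called 6.66% of all genes lower. Neural stem cell markers had 2 of 7 higher without T3 and 0 with T3 (2530 to 2856 CPM against 2040 to 2945 CPM with T3). No astrocyte or OPC marker was called between labels in edgeR's quasi-likelihood test. For astrocytes 2 of 9 reached an unadjusted p under 0.05 without T3 and 1 with T3, and DESeq2 called 1 and 0. For OPC markers 1 of 11 reached it in each, and DESeq2 called 0. With T3, 26.5% of all genes reached an unadjusted p under 0.05 and DESeq2 called 18.7%. With T3 in the WT-labelled cells, where Hes5, Id4 and Dll3 fell, 5 of 11 neuron markers were lower and 9 of 13 myelin genes higher. In the same comparison 1 neural stem cell, 1 microglia and 1 ependymal marker were higher. The microglia list had a median log2 fold change of -1.10 there. Its summed levels were near the floor and overlapped, at 1.81 to 2.39 CPM with T3 and 1.50 to 2.32 CPM without. Beside the fall of Dll3 with T3 in the RXRgKO-labelled cells, 8 of 13 myelin genes were higher and edgeR called 0 markers of another cell type. There 1 neuron, 2 neural stem cell, 2 microglia and 1 ependymal marker reached an unadjusted p under 0.05, and DESeq2 called 1 neural stem cell and 1 microglia marker. Of the OPC markers 4 of 11 reached it, and DESeq2 called 0.

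Within each group, the library set with the higher summed astrocyte markers also had more Id1 and Id3 RNA. Between labels with T3 the order differed. WT-labelled replicate 1 had the highest sum, 11207 CPM of it from Gfap. Its Id1 RNA, at 52.4 CPM, lay below that of all RXRgKO-labelled libraries with T3. Under the RXRgKO label with T3 the sums came to 8491 and 7461 CPM in the libraries lacking Xist and 4659 and 4912 CPM in those with Xist. Under the WT label with T3 they came to 15781 CPM in replicate 1 and 5114 to 6142 CPM in replicates 2 to 4. Without T3 the RXRgKO-labelled values were 5706 and 6050 CPM lacking Xist and 3209 and 3118 CPM with Xist, and the WT-labelled values were 8845 CPM in replicate 1 and 3506 to 3684 CPM in the others. The summed OPC markers were 2521 and 2487 CPM in the T3 libraries lacking Xist and 4648 and 4943 CPM in those with Xist. The part of either in the levels of the members was not tested.

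Compared per length, Hes5, Id2 and Id3 were among the 4 most abundant members in each group, and Hes1 was the least abundant. Under the RXRgKO label with T3, Id3 came first at 188 ± 50.6 CPM per kilobase of exon (SD, n = 4), then Id2 at 99.2 ± 21.8, Id1 at 81.6 ± 31.9 and Hes5 at 67.3 ± 25.4. Hes1 was lowest, at 6.82 ± 0.523. Without T3 under the WT label, Hes5 was at 79.3 ± 4.36 CPM per kilobase, followed by Id2 at 69.8 ± 8.98, Id3 at 55.0 ± 34.6 and Id4 at 41.6 ± 6.23. Then came Id1 at 24.6 ± 16.8, Dll1 at 23.6 ± 1.05, Dll3 at 21.4 ± 0.694, Notch1 at 18.5 ± 0.561 and Hey1 at 14.5 ± 4.99, and Hes1 closed the order at 3.50 ± 0.797. Ranges of the mean ± SD overlapped between neighbours in this order except between Dll1 and Dll3, between Dll3 and Notch1 and between Hey1 and Hes1. With the length of the longest transcript Id2, at 86.4 CPM per kilobase, came above Hes5, at 84.9, so the order depends on the length used. The group mean of Hes5 per kilobase exceeded that of Hes1 in each of the 4 groups.

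**Figure D4:**
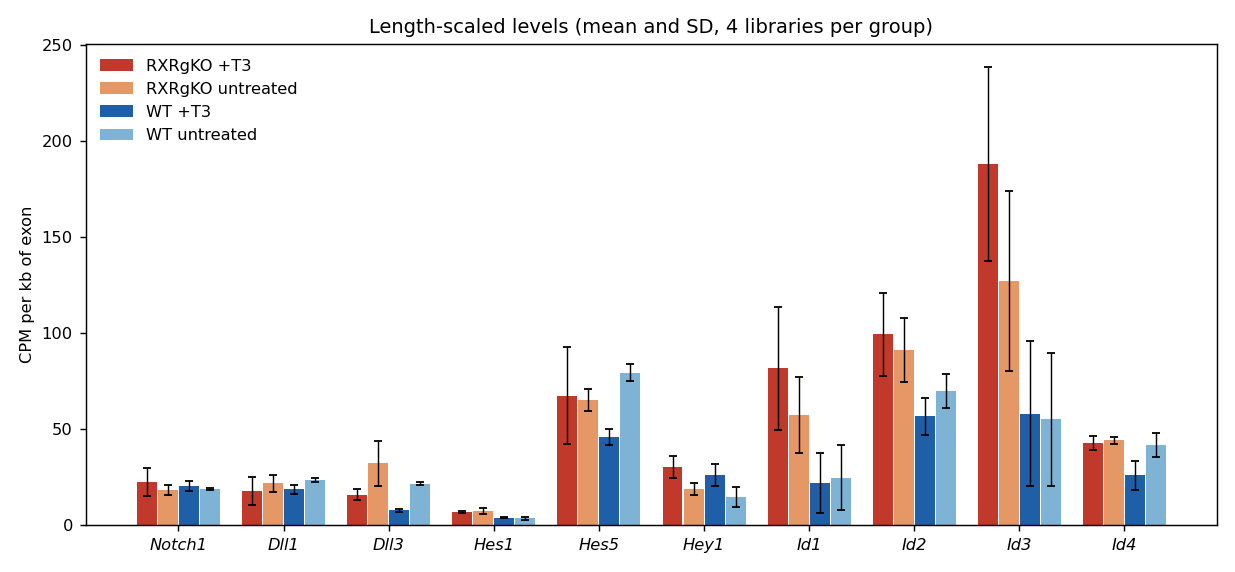
Mean level of each of the 10 genes in CPM per kilobase of exon, as bars with the SD over the 4 libraries of each group. Hes1 is lowest in each group, with means of 3.50 to 7.32, and Id3 reaches 188 under the RXRgKO label with T3.

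Of 10 other ligand and receptor genes of the Notch pathway, 2 were lower and 0 higher with T3 under the WT label, where 3.48% of all genes were lower and 4.96% higher. The shares of all genes given above for each comparison also apply to the lists that follow. The ligand gene Jag2 was at 4.00 ± 0.447 CPM with T3 and 6.13 ± 0.851 CPM without (log2 fold change -0.61, adjusted p = 0.0297). The ligand gene Dll4 was at 1.14 ± 0.270 CPM with T3 and 1.95 ± 0.295 CPM without (-0.77, adjusted p = 0.038). Under the RXRgKO label Dll4 was the 1 gene of this list called lower with T3, at 1.26 ± 0.114 CPM with T3 and 2.24 ± 0.600 CPM without (-0.82, adjusted p = 0.0484). Between genotype labels, 0 of 10 were called without T3, while 3 reached an unadjusted p under 0.05 and DESeq2 called 1. With T3, Dlk2 (0.84, adjusted p = 0.00114) and Jag2 (0.59, adjusted p = 0.0238) were higher under the RXRgKO label.

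Of 21 genes for the processing, trafficking and glycosylation of Notch or its ligands, 2 were lower with T3 under the WT label. Neurl1b, an E3 ligase of ligand endocytosis, was at 5.28 ± 2.52 CPM with T3 and 11.6 ± 1.40 CPM without (-1.12, adjusted p = 0.00434). Mfng, a Fringe glycosyltransferase, was at 11.2 ± 2.96 CPM with T3 and 19.5 ± 3.73 CPM without (-0.81, adjusted p = 0.0177). None was called with T3 under the RXRgKO label, where 3 reached an unadjusted p under 0.05 and DESeq2 called 1. Between genotype labels the Fringe gene Lfng was higher, at 60.8 ± 5.71 CPM under the RXRgKO label and 24.7 ± 0.733 CPM under the WT label without T3 (1.30, adjusted p = 6.82e-05). With T3 it was at 69.2 ± 6.06 CPM under the RXRgKO label and 35.4 ± 11.7 CPM under the WT label (0.96, adjusted p = 0.000807). The gamma-secretase subunit gene Aph1a was lower (-0.54, adjusted p = 0.0152 without T3, and -0.81, adjusted p = 0.000674 with it).

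Of 17 genes of the nuclear complex and its corepressors, 1 was higher and 2 lower with T3 under the WT label. The histone deacetylase gene Hdac1 rose (0.55, adjusted p = 0.0274), and the coactivator gene Maml3 (-1.06, adjusted p = 0.00947) and the corepressor gene Tle2 (-0.64, adjusted p = 0.0271) fell. None was called with T3 under the RXRgKO label, where 2 reached an unadjusted p under 0.05 and DESeq2 called 0. Maml3 was higher under the RXRgKO label than under the WT label, at 8.62 ± 1.76 and 3.03 ± 0.442 CPM with T3 (1.52, adjusted p = 0.000301) and at 11.2 ± 2.82 and 6.30 ± 1.76 CPM without (0.84, adjusted p = 0.0218). Between genotype labels 2 of the 17 were higher and 2 lower without T3, and 1 was higher and 2 lower with T3. Without T3, Hdac1 was higher too (0.55, adjusted p = 0.0196), and the corepressor gene Tle1 (-0.52, adjusted p = 0.0388) was lower. With T3, Rbpj, which encodes the DNA-binding partner of Notch, was lower (-0.52, adjusted p = 0.0179).

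A list of 11 held other Hes and Hey genes, Notch target genes, and Bhlhe40 and Bhlhe41, related bHLH repressor genes that are not Hes or Hey genes. Of the 10 that passed the filter, 1 was higher with T3 under the WT label, Bhlhe40 (0.90, adjusted p = 0.0157). Whether Notch acts on Bhlhe40 or Bhlhe41 in these cells was not tested. None was called with T3 under the RXRgKO label, where 2 reached an unadjusted p under 0.05 and DESeq2 called 0. Between genotype labels 2 were higher and 1 lower, both without and with T3. Heyl was at 1.85 ± 0.836 CPM under the RXRgKO label and 0.266 ± 0.0591 CPM under the WT label with T3 (2.83, adjusted p = 2.6e-05), and at 1.96 ± 0.422 and 0.558 ± 0.0355 CPM without (1.80, adjusted p = 0.000812). Hey2 was at 13.1 ± 6.36 and 5.49 ± 1.41 CPM with T3 (1.26, adjusted p = 0.0231) and at 11.0 ± 3.76 and 4.51 ± 1.63 CPM without (1.29, adjusted p = 0.0254). Bhlhe41 was lower, at 5.47 ± 1.67 and 22.8 ± 1.15 CPM with T3 (-2.07, adjusted p = 1.15e-06). Heyl is also known from vascular mural cells. Of the 6 mural markers above, 2 were higher in the same comparisons, while the means of Pdgfrb and Rgs5 were similar or lower. The part of mural cells in these values was not tested.

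Of 24 BMP pathway genes, the signalling known to drive Id genes, 4 were higher and 1 lower under the RXRgKO label without T3, and 5 were higher and 1 lower with T3. The inhibitory SMAD gene Smad7 was at 16.1 ± 7.15 CPM under the RXRgKO label and 75.2 ± 7.02 CPM under the WT label with T3 (-2.22, adjusted p = 8.25e-06), and at 11.9 ± 1.52 and 45.3 ± 2.07 CPM without (-1.93, adjusted p = 3.39e-05). The ligand gene Bmp6 was at 35.3 ± 5.85 and 13.6 ± 3.75 CPM with T3 (1.37, adjusted p = 0.000819). The pseudoreceptor gene Bambi was at 13.3 ± 1.25 and 4.70 ± 0.981 CPM without T3 (1.50, adjusted p = 4.37e-05). The ligand antagonist genes Fst (2.38, adjusted p = 0.00161) and Nog (1.35, adjusted p = 0.000468) were higher with T3. Msx1, a homeobox target of BMP signalling, was higher with T3 (1.50, adjusted p = 0.00289) and without (1.81, adjusted p = 0.000812). The list therefore held called genes that transmit BMP signals and called genes that oppose them. With T3 under the WT label, Bambi rose (0.81, adjusted p = 0.0118) and Nog fell (-1.0, adjusted p = 0.00868), and under the RXRgKO label none of the 24 was called, with 1 at an unadjusted p under 0.05 and 0 by DESeq2.

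Of 14 genes for E proteins and lineage bHLH factors, the partners of Id proteins and targets of Hes repressors, 11 passed the filter. With T3 under the WT label 1 of the 11 was lower and 0 were higher. DESeq2 called 2 lower, where it called 903 of all 19764 genes lower. Bhlhe22 was the gene called higher with T3 under the RXRgKO label (1.70, adjusted p = 0.0101). Between genotype labels 0 of 11 were called without and with T3, where 1 reached an unadjusted p under 0.05 in each, and DESeq2 called 1 without T3 and 0 with it.

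The genes with the most similar pattern over the 16 libraries were found by Pearson's r of log2 CPM among 15315 protein-coding genes. These values are descriptions, and the libraries share group, set and depth. Id1 and Id3 were each other's nearest gene (r = 0.990), followed by Nfkbia for Id1 (0.968) and Mxra7 for Id3 (0.962). Id2 was nearest to Arhgap5 (0.971) and Lxn (0.963), with r = 0.944 to Id1 and 0.910 to Id3. Id4 was nearest to Mapt (0.953) and Tceal3 (0.937), and among the members to Dll3 (0.753). Dll3 was nearest to Syn2 (0.965) and Stum (0.949), Dll1 to Sesn3 (0.961) and Tacc2 (0.953), and Notch1 to Irf2bpl (0.965) and Lrrtm1 (0.962). Hes1 was nearest to Fam198b (0.982) and Crb2 (0.973), Hes5 to Dpp6 (0.908) and Frat2 (0.901), and Hey1 to Tmem41b (0.978) and Ldha (0.978). Hes5 and Dll1 had r = 0.746.

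The members lie on 8 chromosomes in the GRCm38 annotation. Notch1 (2:26457903-26516663, minus strand) and Id1 (2:152736251-152737410, plus) share a chromosome, as do Hes5 (4:154960923-154962371, plus) and Id3 (4:136143497-136145755, plus). Dll1 lies at 17:15367354-15376872 (minus), Dll3 at 7:28293553-28302238 (minus), Hes1 at 16:30064384-30067796 (plus), Hey1 at 3:8663359-8667256 (minus), Id2 at 12:25093799-25097140 (minus) and Id4 at 13:48261228-48266026 (plus). Genes on the opposite strand overlap Hes5, Id4 and Notch1. They had means of 5.81 counts per library for Gm20421 at Hes5, 8.69 and 5.56 for A330033J07Rik and Gm49291 at Id4, and 2.31 and 34.3 for Gm13568 and 0610009E02Rik at Notch1. Whether counting used the strand is not given in the sources used here, so reads of these pairs may not be told apart.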

How the data were processed

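RNA was measured in 16 libraries in 4 groups of 4. Per the labels' protocols, RNA was purified on poly-T beads and made into libraries with strand marking by dUTP. The submitters' processing notes name HTSeq 0.6.1p1, STAR 2.5.3a, bcl2fastq 2.17.1.14 and mm10. Neither the annotation used nor the strand setting of the counting is given in the sources used here. The authors deposited raw counts per Ensembl gene for 55335 genes, and the 5 HTSeq summary lines were left out of tests. Reads counted in genes made up 22.4% to 46.7% of a file's total, multiply placed reads 39.6% to 55%, and reads outside genes 11.5% to 23.5%. Symbols and positions came from GENCODE M21 (GRCm38), which matched 55154 identifiers, and promoters from RefSeq.

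Counts were tested in R 4.3.3 with edgeR 4.0.16 (quasi-likelihood, robust, TMM, filterByExpr by group). A single fit to all 16 libraries, with a mean per group, covered 19764 genes. All 10 members passed the filter. Calls used a Benjamini-Hochberg adjusted p under 0.05 over all genes. The SE is the absolute log2 fold change over the square root of F. CPM used TMM library sizes, and log2 CPM a prior count of 2. Reads carry no molecular identifiers, so counting precision is not that of molecules. The fit was tested on simulated data with a single dispersion and no library sets. That test therefore does not show how the fit behaves with such sets.

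The members, the gene lists and the library sets were chosen with earlier results of these data known. Genes named are the members, Rxrg, up to 4 called genes per list and comparison by adjusted p, and the 2 genes most like each member; the markers with no count in a library, the other values of named genes and the lowest OPC marker were added after their values were seen. Library sets joined libraries of 1 group with a chi-square per gene under 3 over genes with summed counts of 20 to under 500. Across treatments the sets were matched by replicate number under the WT label and by Xist under the RXRgKO label. Whether replicate numbers pair libraries was checked by correlating deviations from group means. For T3 under the WT label the same-number correlations were 0.648, 0.247, 0.211 and 0.164, and replicates 2 to 4 each correlated better with another number. Equal numbers were therefore not shown to mark pairs, and the block on them is given as an alternative only. Under the RXRgKO label the same-number correlations were 0.543, -0.629, -0.697 and 0.600, and between labels -0.391 to 0.291, so no pairing was shown there either. The main fit used no pairing. Alternatives were DESeq2 1.42.0, its size factors in edgeR, other low-count filters, only the groups compared, a replicate block, the library set as a term, and leaving out libraries or sets. The block on the WT-labelled libraries alone was added after seeing the data. Some genes of the lists are not reported here.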

Additional observations from a re-analysis of the deposited data

Results flagged for a closer look

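Of 40 member and group combinations, 9 had a library far from the other 3 by Dixon's test for 4 values, which chance does in about 1 in 20. In 8 of the 9 that library was WT-labelled replicate 1, and the library sets described above make these flags dependent on each other. With T3 under the WT label, replicate 1 stood high for Id1 (52.4 CPM), Id2 (173 CPM) and Id4 (144 CPM). Without T3 it stood high for Id1 (57.8 CPM), Id3 (191 CPM), Id4 (196 CPM) and Hey1 (71.6 CPM), and low for Dll1 (93.1 CPM). Under the RXRgKO label with T3, replicate 2 stood low for Hes1 (12.3 CPM, against 14.3 to 14.5 CPM in the others). Replicate 1 under the WT label also had the highest Gfap, the astrocyte intermediate filament gene, at 11207 CPM with T3 and 4728 CPM without.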

How the results depend on the processing

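Calls over all genes depended on how library sets were treated. T3 under the WT label gave 1668 calls, 5084 with the replicate block in the WT-labelled libraries alone, 1537 with the replicate block in all 16 libraries, 7599 with the library set as a term, 2688 without WT replicate 1 in both treatments, and 997 to 2475 without 1 library. T3 under the RXRgKO label gave 555 calls, 1194 with DESeq2, 6634 with the set term, 129 without the libraries with Xist, and 253 to 500 without 1 library. The label comparison without T3 gave 2240 calls, 7439 with the set term, 4518 without the libraries with Xist, and 1712 to 2206 without 1 library. With T3 it gave 2943, 8408 with the set term, 5955 without the libraries with Xist, and 2178 to 3195 without 1 library. The response difference gave 13 calls, 105 with DESeq2, 20 at 1 CPM in 4 libraries, 4 with the replicate block in all 16 libraries, 1321 with the set term, 118 without WT replicate 1, 26 without the libraries lacking Xist, and 3 to 49 without 1 library. The set term treats the similar libraries of a set as independent. Among the members it added calls of Dll1, Id1 and Id2 for T3 under the WT label, and of Notch1, Dll1, Hey1, Id1 and Id3 for T3 under the RXRgKO label. Between labels it added Dll3, Hey1, Id1, Id2 and Id3 without T3, and Hes5 and Hey1 with T3. Those it added for the response difference are given above. The cause of the other moves was not tested. The replicate block in all 16 libraries called Hey1 for T3 under the RXRgKO label (0.69, adjusted p = 0.0381) and, for RXRgKO against WT without T3, Id1 (1.40, adjusted p = 0.01) and Id3 (1.33, adjusted p = 0.00744), and changed no other call among the members.

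Signs of some members turned, including those of Hes5 between labels with T3 (0.55) and of the Id3 response difference (0.49). For T3 under the WT label, Hes1 was at -0.09 without WT replicate 1; without 1 library Hes1 ranged over -0.07 to 0.16, Id1 over -0.83 to 0.46 and Id3 over -0.51 to 0.64. For T3 under the RXRgKO label, Id4 was at 0.00316 with no low-count filter and 0.06 without the libraries lacking Xist, Hes5 at -0.02 with the set term and -0.42 without the libraries with Xist, and Hes1 at 0.09 without the libraries with Xist; without 1 library Hes1 ranged over -0.21 to 0.03, Hes5 over -0.13 to 0.22 and Id4 over -0.09 to 0.00724. Without T3, RXRgKO against WT, Notch1 was at 0.15 and Dll1 at 0.09 without the libraries lacking Xist, and Notch1 over -0.10 to 0.05 without 1 library. With T3, Dll1 was at 0.02 without WT replicate 1 and 0.33 without the libraries lacking Xist, Hey1 at -0.08 without the same libraries, and Notch1 at -0.41 (adjusted p = 0.0328) and Hes5 at -0.09 without those with Xist; without 1 library Notch1 ranged over -0.04 to 0.26 and Dll1 over -0.27 to 0.10. For the response difference, Dll1 was at -0.00312 with the set term, and Dll1 at -0.31 and Notch1 at -0.11 without the libraries with Xist; without 1 library Notch1 ranged over -0.02 to 0.28, Dll1 over -0.14 to 0.23, Hey1 over -0.44 to 0.03 and Id3 over -0.07 to 1.08.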

Other observations

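Bmp4, a BMP ligand gene that is no member, was at 51.8 to 73.1 CPM under the RXRgKO label with T3 and 10.2 to 68.5 CPM under the WT label with T3, and was chosen after its values were seen. Without T3 it was at 56.1 to 68.3 CPM under the RXRgKO label and 26.3 to 181 CPM under the WT label. It was not called in any comparison (log2 fold change 1.33, SE 0.66, adjusted p = 0.21 for RXRgKO against WT with T3, and -1.37, SE 0.66, adjusted p = 0.236 for T3 under the WT label, edgeR's quasi-likelihood test).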
